A study of Homo sapiens with 5 samples.

Results

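The 10 genes described here encode alpha-tubulins (TUBA1A and TUBA1B), beta-tubulins (TUBB, TUBB2A, TUBB2B, TUBB3 and TUBB4B) and stathmins (STMN1, STMN2 and STMN4). They were taken by name from the human-reference matrices of all 5 single-cell libraries, and are 10 of the 32732 genes that both human annotations of the series list. D0 held brain organoids cultured in vitro until day 42. The grafts were organoids of that age placed into the hippocampus (HIP) or the prefrontal cortex (PFC) of SCID (SCID-Beige) mice, immunodeficient hosts, and taken 2 or 4 months post-transplantation (2MPT and 4MPT), which gave HIP_2MPT, PFC_2MPT, HIP_4MPT and PFC_4MPT. All organoids came from H9, an established human embryonic stem cell line, labelled WT, in a derivative that carries the light-gated channel ChR2 and the fluorescent protein EYFP. Each condition was 1 library. D0 pooled several organoids, and how many mice stood behind each graft library is not given in the sources used here.

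Microtubules are hollow polymers of alpha-tubulin and beta-tubulin pairs, which form the mitotic spindle of dividing cells and the tracks of axons and dendrites. Vertebrates carry several genes, or isotypes, for each kind of tubulin. TUBA1A, TUBB2B and TUBB3 are prominent in newborn neurons, and their mutations cause cortical malformations, whereas TUBA1B, TUBB and TUBB4B are expressed broadly and take part in cell division. Stathmins are small phosphoproteins that bind free tubulin pairs and favour the shortening of microtubules. STMN1 is found in dividing cells and in young neurons, while STMN2 and STMN4 belong to neurons, STMN2 above all to growing axons.

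In the GENCODE v44 annotation of GRCh38, the neighbours TUBA1A (ENSG00000167552, chr12:49184686-49189080) and TUBA1B (ENSG00000123416, chr12:49127782-49131397) are both on the minus strand. TUBB2A (ENSG00000137267, chr6:3153497-3157544) and TUBB2B (ENSG00000137285, chr6:3223324-3231730) form a similar pair on the minus strand. TUBB (ENSG00000196230, chr6:30717435-30725538), TUBB3 (ENSG00000258947, chr16:89921392-89938761) and TUBB4B (ENSG00000188229, chr9:137241287-137243707) are on the plus strand, and STMN1 (ENSG00000117632, chr1:25884181-25906991) is on the minus strand. STMN2 is ENSG00000104435 and STMN4 is ENSG00000015592.

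The upstream sequences of 2 pairs of paralogs are shown because the members of each pair differed in which cells held more of them. TUBA1A and TUBB2A were higher in neuron-like cells, TUBA1B and TUBB4B in dividing progenitor-like cells. Each sequence is the 250 bases before the gene start in RefSeq (GRCh38.p14), written 5′ to 3′ on the strand of its gene, and capitals mark a CCAAT box (CCAAT), a GC box (GGGCGG), a cell cycle homology region (TTTGAA) or a proneural E-box (CATCTG), each searched on both strands.
TUBA1A, chr12:49189081-49189330, minus strand: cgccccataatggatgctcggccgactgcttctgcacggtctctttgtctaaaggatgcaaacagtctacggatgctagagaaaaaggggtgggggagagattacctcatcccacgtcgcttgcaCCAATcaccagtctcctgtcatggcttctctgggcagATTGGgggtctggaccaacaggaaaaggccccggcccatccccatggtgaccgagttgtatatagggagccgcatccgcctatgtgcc
TUBA1B, chr12:49131396-49131645, minus strand: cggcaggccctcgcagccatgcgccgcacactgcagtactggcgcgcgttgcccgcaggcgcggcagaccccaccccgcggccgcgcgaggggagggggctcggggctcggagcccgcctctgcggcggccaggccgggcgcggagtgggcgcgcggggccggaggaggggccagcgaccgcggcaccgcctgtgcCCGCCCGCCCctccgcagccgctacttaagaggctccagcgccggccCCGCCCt
TUBB2A, chr6:3157545-3157794, minus strand: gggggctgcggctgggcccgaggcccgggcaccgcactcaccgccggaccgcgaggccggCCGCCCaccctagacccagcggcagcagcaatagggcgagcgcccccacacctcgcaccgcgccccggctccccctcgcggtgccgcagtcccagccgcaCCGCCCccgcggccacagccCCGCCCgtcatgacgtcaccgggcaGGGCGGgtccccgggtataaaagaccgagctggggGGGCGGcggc
TUBB4B, chr9:137241037-137241286, plus strand: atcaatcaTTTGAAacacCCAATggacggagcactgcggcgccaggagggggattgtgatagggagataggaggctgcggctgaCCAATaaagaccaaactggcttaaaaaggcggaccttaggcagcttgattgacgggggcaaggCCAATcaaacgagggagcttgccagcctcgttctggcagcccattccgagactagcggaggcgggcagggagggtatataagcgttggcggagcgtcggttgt

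The CCAAT box occurred 2 times in the window of TUBA1A, 3 times in that of TUBB4B and 0 times in those of TUBA1B and TUBB2A, against at least once in 32.0% of 35116 windows of RefSeq genes. The GC box occurred 3 times for TUBA1B, 5 times for TUBB2A and 0 times for TUBA1A and TUBB4B, against 42.6% of windows. In TUBA1B 2 of the GC boxes overlap. TTTGAA was found 1 time for TUBB4B and not for the other 3 genes, against 13.3% of windows, and CATCTG was found for none of the 4, against 12.2% of windows. RefSeq windows were matched for 8 of the 10 genes. Matches are letters in a window, not sites shown to be bound.

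A unique molecular identifier (UMI) tags each captured RNA molecule, so a UMI count is a count of molecules near their 3′ end, and levels of different genes were compared as CPM (UMIs scaled to the total of the same cells) without division by transcript length. Where 2 values are given for a stage, HIP comes before PFC. Paralogs can share reads. Of the 411 stretches of 90 bases in the last 500 bases of a transcript, 51.1% for TUBB2A and 33.8% for TUBA1B also occur in a transcript of another gene, against 13.9% for TUBB3, 13.1% for TUBB4B, 10.2% for TUBA1A and 0% for TUBB, TUBB2B and the 3 stathmins. Counts of TUBB2A and TUBA1B are therefore less certain. A longer gene on the same strand, AC092143.1 (ENSG00000198211, chr16:89919165-89936092), which reads through MC1R into TUBB3, is listed only in the annotation of D0. Cell Ranger drops reads that fall in more than 1 gene, AC092143.1 had 0 UMIs in the human cells of D0, and TUBB3 had 2387. How many TUBB3 reads D0 lost in this way cannot be read from the counts, so a TUBB3 difference between D0 and the grafts is not read as a change in the cells.

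After filtering, the libraries held 4885 (D0), 8277 (HIP_2MPT), 5952 (PFC_2MPT), 6913 (HIP_4MPT) and 8363 (PFC_4MPT) human cells, with a median of 9847 UMIs per cell in D0 and of 1253 to 2759 in the grafts. Cells were clustered without the microtubule genes and grouped into neuron-like, progenitor-like (cycling and radial glia-like), astrocyte-like, oligodendrocyte lineage-like and choroid plexus-like cells. In every library, the summed level of 8 pan-neuronal markers (such as SNAP25 and ELAVL4) was higher in neuron-like cells (1102 to 2281 CPM) than in progenitor-like cells (348 to 1057 CPM), and none of the 8 was at 0. Clusters 15 and 18 were almost only of D0, cluster 13 was led by MTRNR2L genes of mitochondrial origin and came mostly from PFC_4MPT, and cluster 16 was led by heat shock genes. The choroid plexus-like cluster, led by TTR, came mostly from D0. Its 51 to 85 cells per graft library were not held together by other clusterings, which placed 1 to 3 graft cells per library in the TTR cluster at resolution 1.6 and 0 to 2 without integration, so no graft value of this class is given. Libraries shared 6 to 20 cell barcodes per pair. D0 differs from the grafts in age as well as in transplantation, because the grafts were taken months later. It also differs in the dissociation enzyme (TrypLE against Trypsin-EDTA), in the Cell Ranger release and annotation and in depth. These differences cannot be told apart.

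The 7 tubulin genes together made up 1.05% to 1.74% of all UMIs of neuron-like cells, and the 3 stathmin genes 0.357% to 0.866%. In progenitor-like cells the tubulin genes made up 0.813% to 1.29% and the stathmin genes 0.105% to 0.412%. All 10 genes were detected in both classes of every library. The classes come from clusters of the same cells, so differences between them are descriptions without a test, and with 1 library per condition the intervals given are exact 95% Poisson or Clopper-Pearson intervals, which cover counting error only.

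**Figure D1:**
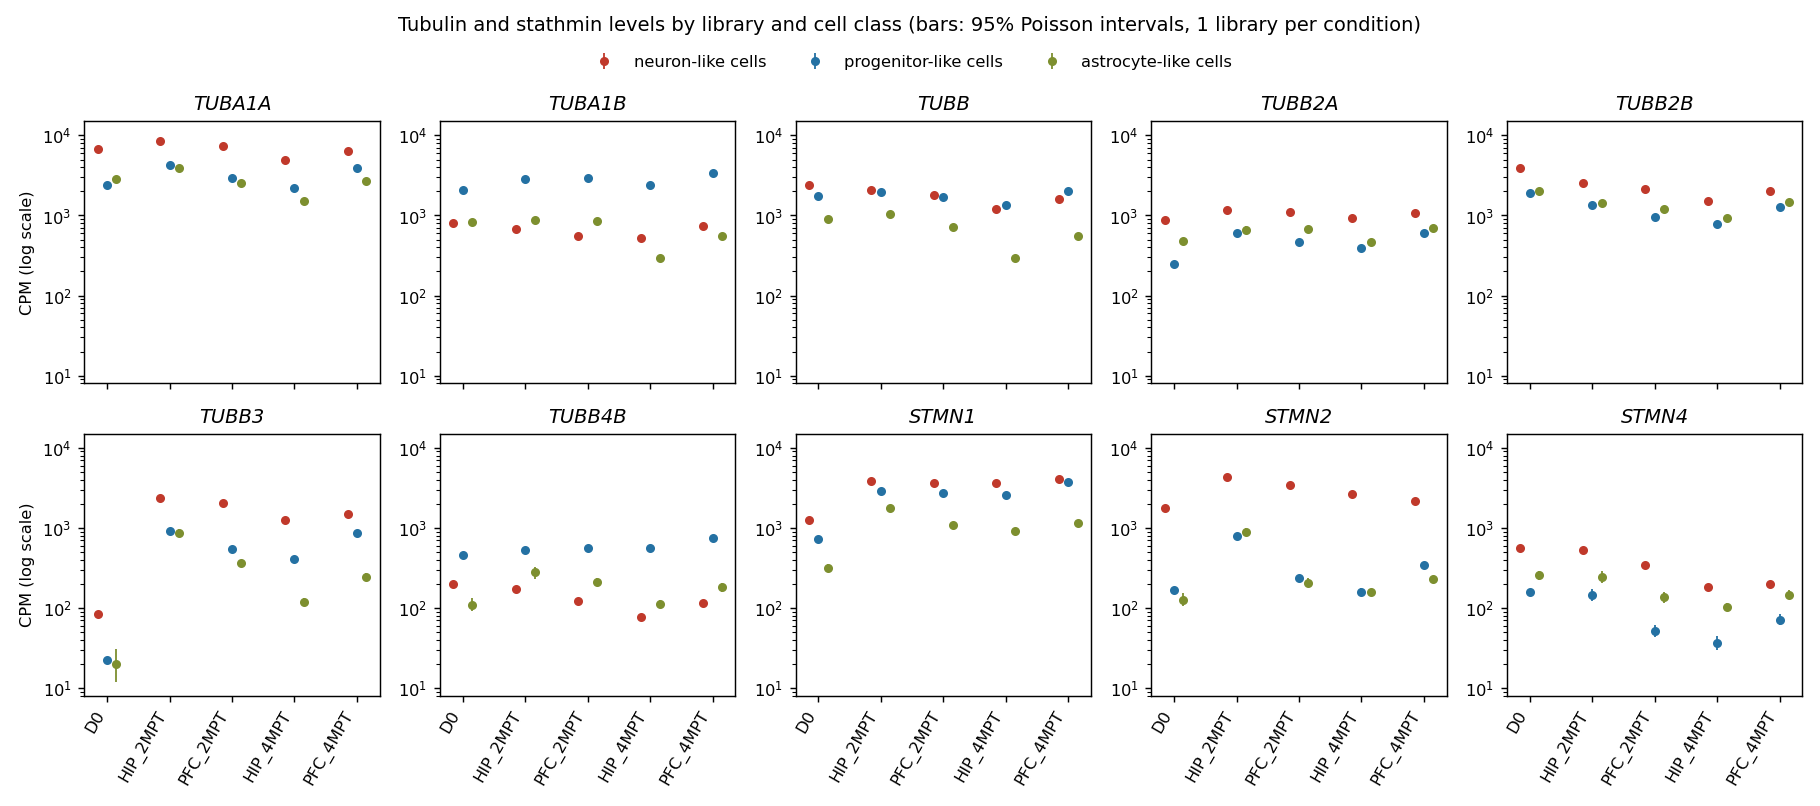
Levels of the 10 genes in CPM (log scale) in each library, for neuron-like, progenitor-like and astrocyte-like cells, with 95% Poisson intervals that are mostly smaller than the points. STMN2 was higher in neuron-like cells in all 5 libraries, TUBA1B and TUBB4B were higher in progenitor-like cells, and TUBB3 was lowest in D0, where a gene overlapping it is also listed.

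Of the alpha-tubulins, TUBA1A was higher in neuron-like and TUBA1B in progenitor-like cells. In neuron-like cells TUBA1A was at 6767 CPM in D0, 8417 and 7337 CPM at 2MPT and 4943 and 6472 CPM at 4MPT. In progenitor-like cells it was at 2211 to 4319.6 CPM, and the library-by-library log2 ratio of neuron-like to progenitor-like cells was 1.16 (0.70 to 1.49), given as the median and the range over 5 libraries. TUBA1B, the broadly expressed alpha-tubulin, was at 2079 CPM in D0, 2878 and 2965 CPM at 2MPT and 2411 and 3434 CPM at 4MPT in progenitor-like cells. In neuron-like cells TUBA1B was at only 522 to 796 CPM, and its log2 ratio was -2.21 (-2.43 to -1.39). For neither gene did the ranges of the classes overlap, although TUBA1A reached 4319.6 CPM in progenitor-like cells of HIP_2MPT, close below the 4943 CPM of neuron-like cells of HIP_4MPT. Within each library the order of the classes was the same.

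The beta-tubulins split in the same way. TUBB2A and TUBB2B, a pair of close paralogs of neural tissue, had log2 ratios of 1.24 (0.82 to 1.84) and 0.95 (0.65 to 1.17) between neuron-like and progenitor-like cells. TUBB2B in neuron-like cells was at 3868 CPM in D0, 2536 and 2139 CPM at 2MPT and 1528 and 1998 CPM at 4MPT, and TUBB2A at 889.8 CPM in D0, 1166 and 1121 CPM at 2MPT and 931 and 1067 CPM at 4MPT. In counts, TUBB2B exceeded TUBB2A in neuron-like cells of all 5 libraries. This order is uncertain, because 51.1% of the TUBB2A end stretches also occur in other genes, against 0% for TUBB2B. TUBB3, the beta-tubulin used as a neuron marker, was at 2332 and 2033 CPM at 2MPT and 1264 and 1506 CPM at 4MPT in neuron-like cells of the grafts. In graft progenitor-like cells TUBB3 was at 908 and 551 CPM at 2MPT and 412 and 850.3 CPM at 4MPT, so these values stayed below those of neuron-like cells and were far from 0. In D0 it was at 83.4 CPM (79.4 to 87.5) in neuron-like and 22.2 CPM (20.4 to 24.2) in progenitor-like cells, and the log2 ratio between the classes within D0 was 1.91, against 0.82 to 1.88 in the grafts.

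TUBB and TUBB4B did not follow the neuronal isotypes. TUBB, a ubiquitous beta-tubulin, was at 1196 to 2394 CPM in neuron-like and 1351 to 1994 CPM in progenitor-like cells, and its log2 ratio was 0.058 (-0.29 to 0.46), positive in 3 of 5 libraries. TUBB4B, a beta-tubulin of dividing and ciliated cells, was at 452 CPM in D0, 524 and 563 CPM at 2MPT and 559.5 and 749 CPM at 4MPT in progenitor-like cells. Its neuron-like values were 202 CPM in D0 and 76.6 to 172 CPM in the grafts, a log2 ratio of -2.19 (-2.87 to -1.16). Within the progenitor-like class of D0, TUBB4B was at 898 CPM in cycling cells and 86.7 CPM in radial glia-like cells, the latter below neuron-like cells. In each graft radial glia-like cells were above neuron-like cells. Of the 10 genes, 7 were higher in neuron-like than in progenitor-like cells in every library, and TUBA1B and TUBB4B were lower in every library. Among 9875 genes at 10 CPM or more, 30.2% were higher and 20.6% were lower in every library.

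The 3 stathmins differed from each other in how far they set neurons apart. STMN2 was at 1760.4 CPM in D0, 4272 and 3451 CPM at 2MPT and 2649 and 2140.2 CPM at 4MPT in neuron-like cells. In progenitor-like cells STMN2 was at 169 CPM in D0, 802 and 235 CPM at 2MPT and 160.2 and 347 CPM at 4MPT, and the log2 ratio was 3.38 (2.41 to 4.05). Among the 10 genes this was the largest median ratio in either direction. STMN4, a stathmin of neurons, was at 563 CPM in D0, 531 and 339.7 CPM at 2MPT and 179.9 and 198 CPM at 4MPT in neuron-like cells and at 36.9 to 156 CPM in progenitor-like cells, a log2 ratio of 1.86 (1.48 to 2.70). STMN1 was at 1248 CPM in D0, 3859 and 3637 CPM at 2MPT and 3618 and 4115 CPM at 4MPT in neuron-like cells. Its progenitor-like values were 720.2 CPM in D0, 2853 and 2732 CPM at 2MPT and 2554 and 3703 CPM at 4MPT, and its log2 ratio was only 0.44 (0.15 to 0.79). STMN1 was thus abundant in both classes.

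**Figure D2:**
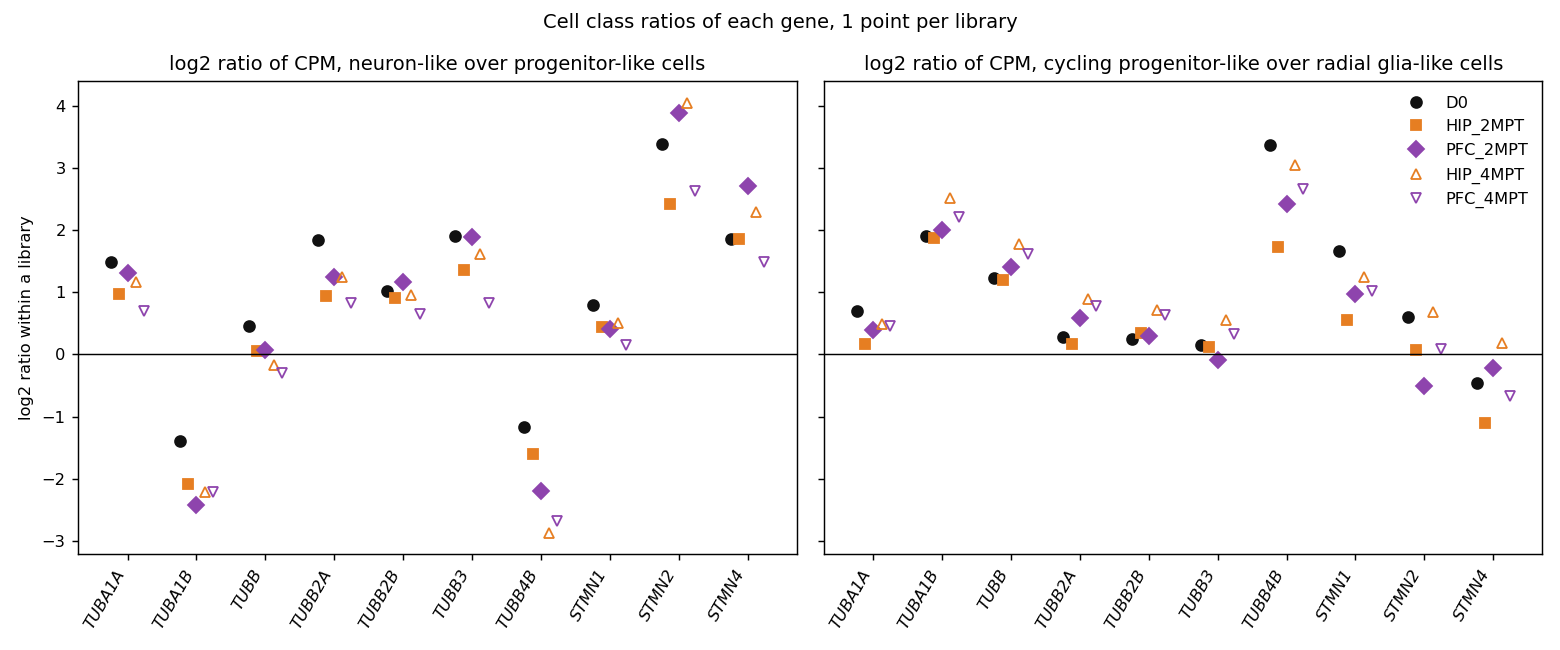
Log2 ratio of CPM between neuron-like and progenitor-like cells (left) and between cycling progenitor-like and radial glia-like cells (right), with 1 point per library for each gene. STMN2 was highest on the left and TUBB4B and TUBA1B lowest, whereas on the right 7 of the 10 genes were above 0 in all 5 libraries, with TUBB4B and TUBA1B highest.

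Within the progenitor-like class, the dividing cells held more tubulin of the general isotypes. Between cycling progenitor-like and radial glia-like cells, the log2 ratio was 2.66 (1.73 to 3.37) for TUBB4B, 2.01 (1.87 to 2.51) for TUBA1B, 1.40 (1.20 to 1.77) for TUBB and 1.01 (0.55 to 1.66) for STMN1. TUBB4B in cycling cells was at 898 CPM in D0, 667 and 870.2 CPM at 2MPT and 818 and 1111 CPM at 4MPT. In radial glia-like cells it was at 86.7 CPM in D0, 201 and 163 CPM at 2MPT and 99.6 and 176 CPM at 4MPT. Of the cycling clusters, cluster 14, led by mitotic genes such as CDC20 and CCNB1, had 1412 ± 341 CPM of TUBB4B (mean ± SD, n = 4 graft libraries), and cluster 11, led by histone and other S phase genes, had 530.4 ± 145 CPM. TUBA1B was at 4189 ± 807 CPM in cluster 14 and at 4078 ± 621 CPM in cluster 11. The neuronal isotypes were less different, with ratios of 0.46 (0.17 to 0.70) for TUBA1A, 0.58 (0.17 to 0.88) for TUBB2A and 0.35 (0.25 to 0.71) for TUBB2B. In all, 7 of the 10 genes had a ratio above 0 in every library, beside 20.3% of 9642 genes at 10 CPM or more, of which 11.1% were below 0 in every library. TUBB3, STMN2 and STMN4 had ratios on both sides of 0, of 0.16 (-0.084 to 0.55), 0.082 (-0.52 to 0.67) and -0.46 (-1.10 to 0.19).

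Astrocyte-like cells held less of most members than neurons did. The log2 ratio of neuron-like to astrocyte-like cells was 3.79 at the median for STMN2, 2.48 for TUBB3, 1.83 for STMN1, 1.38 for TUBB and 1.25 for TUBA1A, with TUBB2A, TUBB2B and STMN4 nearer to 0. All 8 were above 0 in 5 of 5 libraries, as were 20.5% of 10250 genes at 10 CPM or more, while 22.5% were below 0 in all 5. D0 had 83 astrocyte-like cells. Clustering at resolution 1.6 placed 85 D0 cells in this class and clustering without integration 9. Values of this class in D0, here and below, are therefore less certain. TUBA1B and TUBB4B had medians of -0.045 and -0.62, with libraries on both sides of 0. For TUBB4B only D0 (202 against 110 CPM) was above 0, and each graft was below. Astrocyte-like cells still had 1503 to 3891 CPM of TUBA1A and 942 to 2020.4 CPM of TUBB2B. Oligodendrocyte lineage-like cells, of which HIP_4MPT had 928 and PFC_4MPT 690, had 198 and 329 CPM of TUBB2A in these libraries, and 251 and 378 CPM of TUBB3. The values of TUBB2A were below those of the astrocyte-like cells of the same libraries (466 and 701 CPM).

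To compare cells of different depth, each cell with at least 1000 UMIs was thinned to 1000 UMIs, and shallower cells were left out of these shares. Libraries lost cells unevenly. Cells over 1000 UMIs were 5825 of 7303 neuron-like cells in HIP_2MPT, against 1866 of 1983 in D0. STMN2 then had a UMI in 72.6% (70.5 to 74.6) of neuron-like cells in D0, 94.3% (93.7 to 94.9) and 88.8% (87.8 to 89.7) at 2MPT and 84.2% (83.1 to 85.3) and 81.6% (80.6 to 82.7) at 4MPT. Astrocyte-like cells, which should hold little STMN2 but in the grafts also held pan-neuronal markers, were taken for comparison, with the doubt given above for D0. They had an STMN2 UMI in 11.8% (5.56 to 21.3) of cells in D0, 40.2% (34.3 to 46.3) and 10.3% (7.47 to 13.8) at 2MPT and 8.65% (6.57 to 11.1) and 16.3% (13.2 to 19.8) at 4MPT. In progenitor-like cells the share was 11.7% (10.3 to 13.3) in D0, 43.0% (38.3 to 47.7) and 13.0% (10.6 to 15.7) at 2MPT and 7.95% (5.86 to 10.5) and 26.0% (22.8 to 29.5) at 4MPT. The intervals of these classes overlapped in all libraries but PFC_4MPT. Overlap does not show that the progenitor-like shares of the other 4 were background, which was not tested. In PFC_4MPT the interval still overlapped that of oligodendrocyte lineage-like cells, at 19.8% (16.8 to 23.0). Before thinning, 52.1% of progenitor-like cells of D0 had an STMN2 UMI at a median of 11735 UMIs, and 48.2% of astrocyte-like cells at 11035 UMIs.

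HIP_2MPT had the highest STMN2 level in these non-neuronal cells, with 802 CPM in progenitor-like and 896 CPM in astrocyte-like cells. In the other 4 libraries these classes had 127 to 347 CPM. The human UMIs found in barcodes of host mouse cells numbered 155 per barcode at the median in HIP_2MPT, against 54 in PFC_2MPT, 110 in HIP_4MPT and 241 in PFC_4MPT. Of these human UMIs, STMN2 made up 2857 and 3023 CPM at 2MPT and 1568 and 1429 CPM at 4MPT. TUBB3 made up 2671 and 1719 CPM at 2MPT and 833 and 965 CPM at 4MPT, and STMN1 3025 to 5853 CPM. These CPM values give the make-up of the human UMIs in host barcodes and not their amount per cell. Kept human cells had medians of 1253 and 2359 UMIs at 2MPT and of 2759 and 1840 UMIs at 4MPT. Beside this depth, the human UMIs per host barcode were a larger part in HIP_2MPT and PFC_4MPT than in the other grafts. The part of free RNA in the levels of non-neuronal cells was not tested.

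TUBB3 was also found in many graft cells outside the neuron-like class. Its thinned share was 87.1% and 83.3% of neuron-like cells at 2MPT and 67.5% and 72.8% at 4MPT. Progenitor-like cells had 55.4% (50.7 to 60.1), 35.1% (31.6 to 38.8), 30.2% (26.5 to 34.2) and 49.9% (46.0 to 53.7) in the same order. Astrocyte-like cells had 46.5% (40.4 to 52.6), 25.5% (21.3 to 30.2), 8.81% (6.71 to 11.3) and 15.9% (12.9 to 19.4), so the progenitor-like share was the higher one in all 4 grafts, with overlapping intervals in HIP_2MPT. In D0 the share of neuron-like cells was 8.47% (7.24 to 9.82). STMN1 had a UMI in 94.8% to 97.4% of neuron-like and 82.3% to 91.2% of progenitor-like cells of the grafts, and also in 53.7% to 77.5% of astrocyte-like cells.

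Among neurons, STMN2 was lower in intermediate progenitor neuron-like than in glutamatergic neuron-like cells. Intermediate progenitor neuron-like cells (cluster 2, led by PPP1R17 and EOMES, genes of intermediate progenitors) had 2204 and 1884 CPM at 2MPT and 1505 and 1575 CPM at 4MPT of STMN2, and glutamatergic neuron-like cells had 4590.3 and 3748 CPM at 2MPT and 3009 and 2278 CPM at 4MPT. Their log2 ratio was 1.00 (0.53 to 1.90) over 5 libraries. In D0, cluster 15 held 681 of the 1310 glutamatergic neuron-like cells, although its markers scored highest for Cajal-Retzius neurons. Inhibitory neuron-like cells, of which the 2MPT libraries held 31 and 24, had 1296 and 1928 CPM at 4MPT, which in HIP_4MPT was below the intermediate progenitor neuron-like value. STMN4 had a ratio of 0.89 (-0.60 to 1.62), and the ratios were 0.23 (0.0095 to 0.67) for TUBA1A, 0.31 (0.053 to 0.35) for STMN1, 0.12 (-0.11 to 0.77) for TUBB2B and -0.025 (-0.53 to 0.30) for TUBB3. STMN2, TUBA1A and STMN1 were above 0 in every library, 3 of the 10 genes, beside 18.1% of 9534 genes at 10 CPM or more. Cluster 5 had TUBB3 and STMN2 among its 10 leading genes, although these genes were left out of the clustering. TUBB3 was at 2131 ± 712 CPM in cluster 5 (mean ± SD, n = 4 graft libraries), 2130.5 ± 672 CPM in the Cajal-Retzius neuron-like cluster 12, 1916 ± 636 CPM in cluster 0, 1897 ± 574 CPM in cluster 6, 1428 ± 494 CPM in cluster 1 and 1418 ± 253 CPM in cluster 3. STMN2 was at 3422 ± 903 CPM in cluster 5 and 3822 ± 1102 CPM in cluster 0. The spread between libraries was thus as large as most differences between these clusters. The clusters share the same 4 graft libraries, so this spread also holds differences between libraries that the clusters have in common. These clusters were not compared within each library. Cluster 13 had 826 CPM of TUBB3 in PFC_4MPT and was named inhibitory neuron-like although none of its 10 leading genes was an inhibitory marker.

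**Figure D3:**
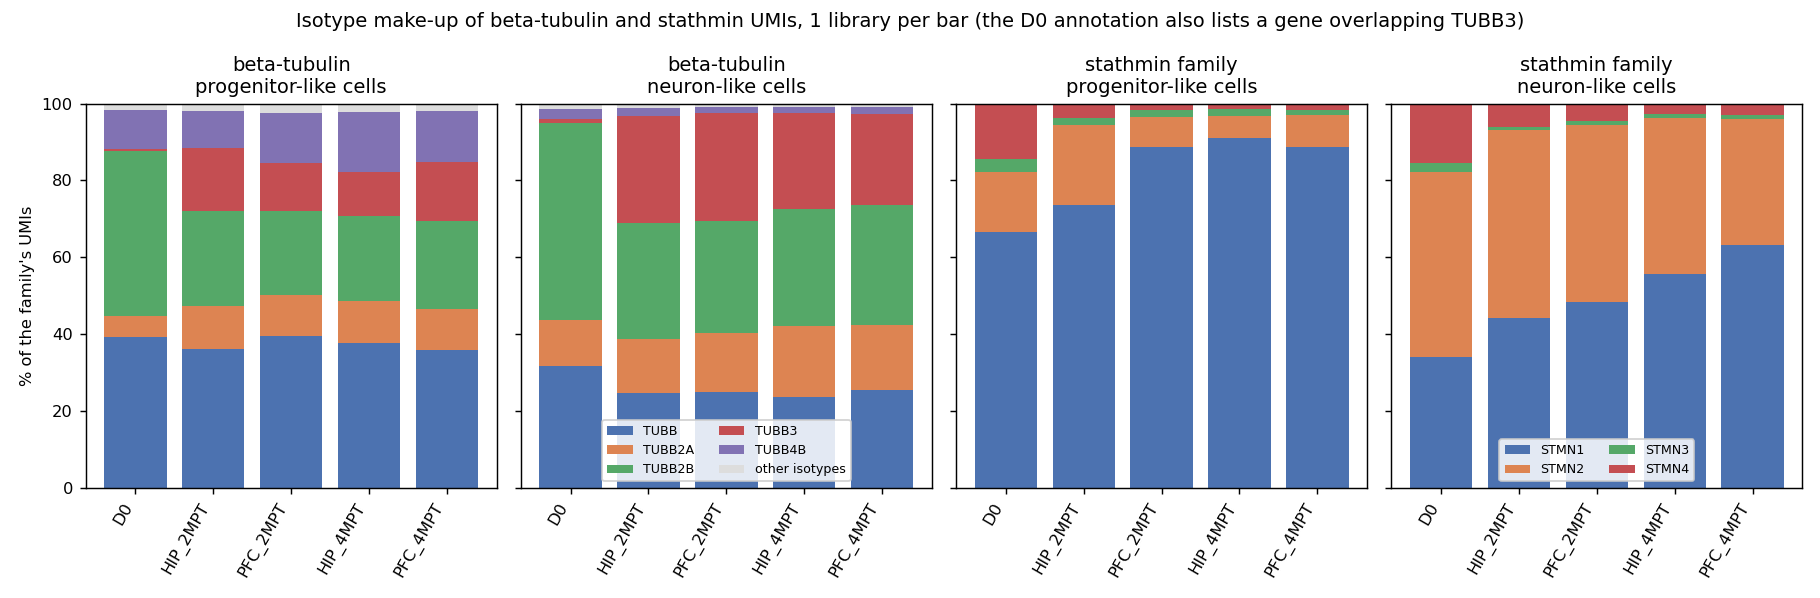
Share of each gene, in percent, among the UMIs of all beta-tubulin genes (2 panels on the left) and of the 4 stathmin genes (2 panels on the right) in progenitor-like and neuron-like cells, with 1 bar per library. In neuron-like cells of the grafts, TUBB, TUBB2B and TUBB3 each made up roughly similar shares, while the STMN1 share was lowest in D0 and highest in PFC_4MPT.

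Within the tubulin families, the shares of the isotypes in neuron-like cells of the 4 grafts lay close together. Of all alpha-tubulin UMIs of neuron-like cells, TUBA1A made up 89.2% in D0 and 88.1% to 91.4% in the grafts. In progenitor-like cells its share was 45.9% to 59.2%, and TUBA1B made up most of the rest with 39.4% to 50.1%. Of beta-tubulin UMIs in graft neuron-like cells, TUBB2B made up 29.4% to 31.4%, TUBB3 23.7% to 27.9%, TUBB 23.7% to 25.5% and TUBB2A 13.9% to 18.5%. In graft progenitor-like cells TUBB led with 35.8% to 39.4%. The shares of TUBB2A and TUBA1B are less certain, because part of their transcript ends also occurs in other genes. In neuron-like cells of D0 TUBB2B made up 51.3% (51.0 to 51.5) of beta-tubulin UMIs, a share that depends on the TUBB3 count there. TUBB4A and TUBB6, which are not among the 10 genes, each made up at most 1.93% in these classes.

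The stathmin family shifted more between libraries. In neuron-like cells STMN1 made up 34.1% (33.7 to 34.4) of stathmin UMIs in D0, 44.2% (43.9 to 44.5) and 48.5% (48.1 to 48.8) at 2MPT and 55.6% (55.3 to 56.0) and 63.2% (62.8 to 63.5) at 4MPT. STMN2 made up 48.0% in D0, 48.9% and 46.0% at 2MPT and 40.7% and 32.9% at 4MPT. STMN4 made up 15.4% in D0 and 2.77% to 6.08% in the grafts. With 2 libraries per graft stage these shares were not tested.

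**Figure D4:**
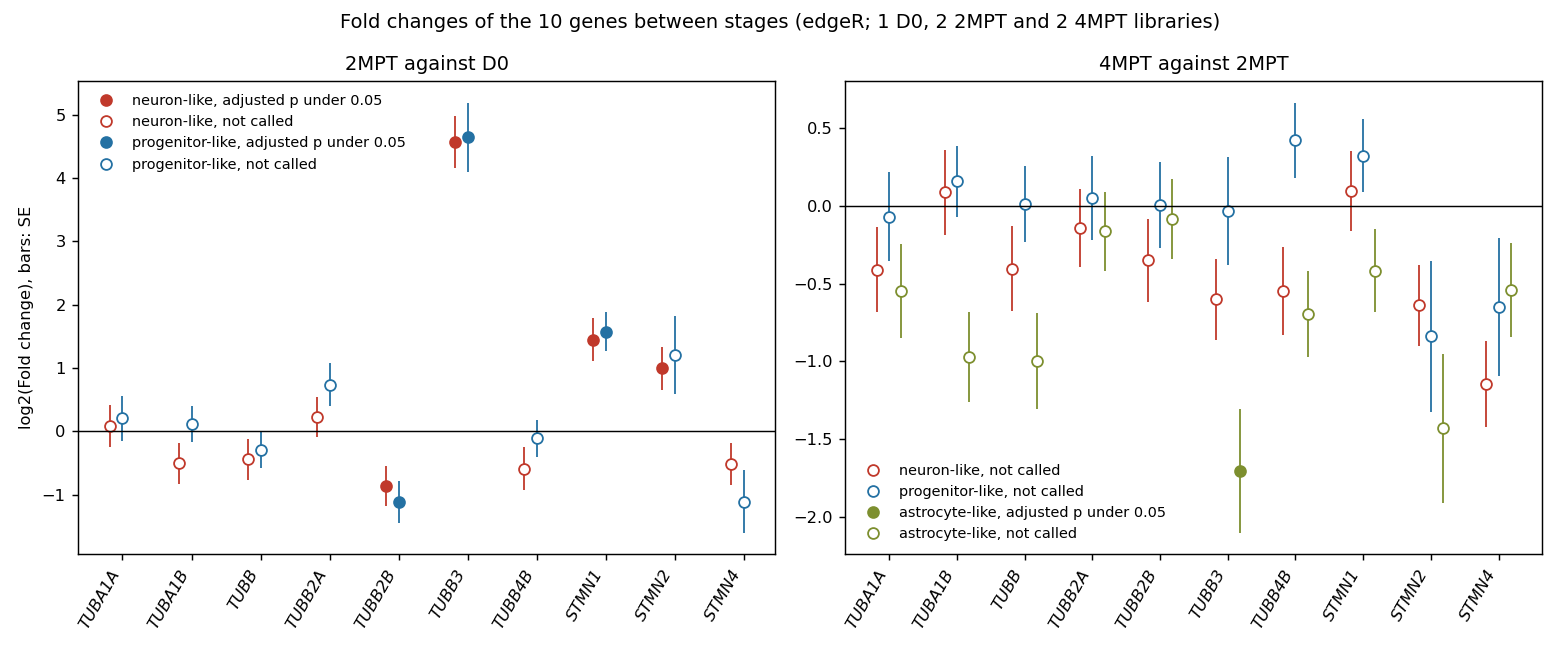
Log2(Fold change) of each gene with its SE for 2MPT against D0 (left; neuron-like and progenitor-like cells) and 4MPT against 2MPT (right; astrocyte-like cells too) in sums of UMIs per library, with filled points for an adjusted p under 0.05. On the left TUBB3 holds the effect of the gene overlapping it in D0, STMN1 rose and TUBB2B fell in both classes, and on the right only TUBB3 in astrocyte-like cells passed the test.

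2MPT was compared with D0 to ask how transplantation and graft age went with these genes. In neuron-like cells, STMN1 and STMN2 were higher and TUBB2B was lower at 2MPT. STMN1 had 1248 CPM in D0 against 3859 and 3637 CPM at 2MPT, a log2(Fold change) of 1.45 ± 0.34 (SE; adjusted p = 0.00475). STMN2 rose from 1760.4 CPM to 4272 and 3451 CPM, by 1.00 ± 0.33 (SE; adjusted p = 0.0306). TUBB2B fell from 3868 CPM to 2536 and 2139 CPM, with a log2(Fold change) of -0.86 ± 0.32 (SE; adjusted p = 0.0462). In each case both 2MPT libraries lay on the same side of D0. TUBB3 also passed the test, with 4.57 ± 0.41 (SE; adjusted p = 1.08e-05), a value that holds the effect of the gene overlapping it in the D0 annotation. The 8 radial glia markers summed to 2199 CPM in neuron-like cells of D0, against 273 and 279 CPM at 2MPT, with none at 0, and their part in these results was not tested.

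The test was the quasi-likelihood test of edgeR, adjusted over all genes by Benjamini-Hochberg, with HIP and PFC as the replicates of a stage and with D0, a single library, assumed to vary like the grafts. Nothing in the sources used here says that HIP and PFC libraries came from separate organoid batches, so p-values measure the spread between these libraries. All 10 members passed the filter on low counts in every comparison. In neuron-like cells 4 of the 10 members passed (3 higher, 1 lower), beside 43.9% of all 17547 genes tested (26.4% higher, 17.4% lower), so the share of members called was close to that of all genes. TUBB3 is counted among the 3 higher members and in the median that follows, although its difference is not read as a change in the cells. The median log2(Fold change) was -0.18 for the members and 0.15 for all genes. The members that did not pass had values of 0.083 ± 0.33 (SE; adjusted p = 0.857) for TUBA1A, -0.51 ± 0.33 (SE; adjusted p = 0.231) for TUBA1B, -0.44 ± 0.33 (SE; adjusted p = 0.295) for TUBB and -0.51 ± 0.33 (SE; adjusted p = 0.220) for STMN4, while TUBB2A and TUBB4B were at 0.23 and -0.59. Without HIP_2MPT, STMN2 was at 0.87 (adjusted p = 0.211) and TUBB2B at -0.96 (adjusted p = 0.161), and without PFC_2MPT they were at 1.05 (adjusted p = 0.120) and -0.84 (adjusted p = 0.222), so neither call was kept on a single 2MPT library. Both were also lost at a human share over 0.9 (adjusted p = 0.0599 and 0.0838) and, chosen after seeing the data, without the clusters led by MTRNR2L or HSPA1 genes (adjusted p = 0.0542 and 0.0598). The TUBB2B call was lost as well with the graft site as a replicate block (adjusted p = 0.0704), at a mitochondrial share under 0.10 (adjusted p = 0.0709), over 1000 UMIs (adjusted p = 0.0699), without integration (adjusted p = 0.0660) and without clusters of 1 library (adjusted p = 0.0823). STMN2 was called in 13, TUBB2B in 8 and STMN1 in 17 of the 17 alternatives run. Among these 17, the run that added the UMIs of AC092143.1 to TUBB3 in D0 could not change a call. AC092143.1 had 0 UMIs, so that run repeats the main fit.

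In progenitor-like cells the pattern was alike for STMN1 and TUBB2B. STMN1 had 720.2 CPM in D0 against 2853 and 2732 CPM at 2MPT (1.57 ± 0.31 SE, adjusted p = 0.00239), and TUBB2B had 1909.6 CPM against 1355 and 953 CPM (-1.11 ± 0.33 SE, adjusted p = 0.0207). With TUBB3 (4.65 ± 0.55 SE, adjusted p = 9.09e-05), 3 of 10 members passed, beside 35.6% of 13603 genes (21.1% higher, 14.5% lower). STMN2 was at 169 CPM in D0 and at 802 and 235 CPM at 2MPT, and its change did not pass the test (1.21 ± 0.62 SE, adjusted p = 0.148). The TUBB2B call was lost without PFC_2MPT (-0.95, adjusted p = 0.0779) and without PFC_4MPT (-1.11, adjusted p = 0.0783). STMN1 was at 319 CPM in the 83 astrocyte-like cells of D0 and at 908 to 1763 CPM in those of the grafts, which were not tested against D0. No listed gene overlaps STMN1, but the gene models behind the counts of D0 and of the grafts could not be compared, and whether reads in introns were counted is not given in the sources used here. The make-up of each class also differed between D0 and 2MPT, and its part in these changes was not tested. Cycling cells were 629 of the 1816 progenitor-like cells of D0, against 297 of 492 in HIP_2MPT and 329 of 694 in PFC_2MPT. Inhibitory neuron-like cells were 448 of the 1983 neuron-like cells of D0, against 31 of 7303 and 24 of 4725. Of these 448, 128 were in cluster 13. Clusters 15 and 18, almost only of D0, held 681 and 230 of the 1983 cells. Over all human cells, where a change in the make-up of cells and one in the level per cell also cannot be told apart, 5 of 10 members passed, beside 48.3% of genes (27.2% higher, 21.1% lower). These were TUBB3, STMN1 (1.68, adjusted p = 0.00270), STMN2 (1.78, adjusted p = 0.00215), TUBA1B (-0.94, adjusted p = 0.0372) and TUBB4B (-0.98, adjusted p = 0.0203). The TUBA1B call was lost without HIP_2MPT (-0.79, adjusted p = 0.152), at a human share over 0.9 (adjusted p = 0.0547) and over 1000 UMIs (adjusted p = 0.0541).

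Other microtubule genes were read in the same comparison from lists of related function. Of 25 microtubule-associated protein genes tested in neuron-like cells, 14 passed, 3 higher and 11 lower at 2MPT (median -0.68). The lower ones included MAP1A (-3.28, adjusted p = 2e-05) and MAP1B (-1.33, adjusted p = 0.00525), which bind along axonal and dendritic microtubules, and MAP9 (-1.43, adjusted p = 0.00313). The higher ones were DCLK2 (1.6, adjusted p = 0.00249), DCLK1 (1.30, adjusted p = 0.00901), both doublecortin-like kinases, and EML1 (1.18, adjusted p = 0.0278). Of 23 tubulin folding entries, 11 passed, 2 higher and 9 lower (median -0.46), among them CCT6A (-1.51, adjusted p = 0.00106) and TCP1 (-1.13, adjusted p = 0.00728), subunits of the chaperonin that folds tubulin, and VBP1 (-1.26, adjusted p = 0.00361), a prefoldin subunit. TBCEL (1.04, adjusted p = 0.0333) and PFDN1 (0.80, adjusted p = 0.0486) were higher.

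Of 24 genes for enzymes that modify or sever tubulin, 8 passed (5 higher, 3 lower, median 0.24). The polyglutamylases TTLL11 (2.50, adjusted p = 0.000461), TTLL5 (2.10, adjusted p = 0.000645) and TTLL7 (0.98, adjusted p = 0.0291) were higher, and the deacetylase HDAC6 (-1.05, adjusted p = 0.0201) and VASH2 (-1.04, adjusted p = 0.0179), which removes the terminal tyrosine of alpha-tubulin, were lower. Of 25 end-binding and nucleation genes, 9 passed (5 higher, 4 lower, median -0.10), with the neuron navigators NAV3 (3.06, adjusted p = 0.000733) and NAV2 (2.50, adjusted p = 0.000418) and CLASP1 (1.96, adjusted p = 0.0006) higher and TACC1 (-1.72, adjusted p = 0.00178), TUBGCP4 (-1.12, adjusted p = 0.00694) and MAPRE3 (-1.03, adjusted p = 0.00944) lower. Of 12 other tubulins and stathmins, 6 passed (4 higher, 2 lower, median -0.30). TUBA1C (4.11, adjusted p = 1.2e-05), which overlaps TUBA1A on the other strand and shares sequence with TUBA1B, was higher, and gamma-tubulin TUBG1 (-1.36, adjusted p = 0.00580) was lower. The shares called ran from 33.3% to 56.0% of a list, beside 43.9% of all genes. NAV2, NAV3, DCLK1, DCLK2 and CLASP1 are long genes, whose counts rise where reads in introns are counted, and whether D0 and the grafts were alike in this is not given in the sources used here.

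In progenitor-like cells, 9 of 21 microtubule-associated protein genes passed (3 higher, 6 lower), and MAP1A (-2.72, adjusted p = 0.000624), MAP1B (-1.61, adjusted p = 0.000826), DCLK1 (2.52, adjusted p = 0.000192) and DCLK2 (2.02, adjusted p = 0.000629) had the signs they had in neuron-like cells. MAP2, a protein of dendrites, was higher (1.44, adjusted p = 0.00278). Of 23 tubulin folding entries 6 passed, all lower, led by the chaperonin subunits CCT8 (-1.59, adjusted p = 0.00104), CCT6A (-1.35, adjusted p = 0.00276) and CCT4 (-1.22, adjusted p = 0.00502). The other lists had 5 of 24 (modifying and severing enzymes), 7 of 25 (end-binding and nucleation) and 1 of 9 genes (other tubulins and stathmins) called. Together the lists had 28 of 102 genes called, 27.5%, beside 35.6% of all genes. NAV3 (3.92, adjusted p = 5.18e-05) and the deglutamylase AGBL4 (7.40, adjusted p = 1.75e-05) were among the higher genes, both of them long genes to which the doubt about introns applies.

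4MPT was compared with 2MPT to ask how the grafts changed with time. In neuron-like cells 8 of the 10 members had a value below 0, but none passed the test. STMN4 came closest, with 531 and 339.7 CPM at 2MPT against 179.9 and 198 CPM at 4MPT and a log2(Fold change) of -1.15 ± 0.27 (SE; adjusted p = 0.0721). STMN2 had 4272 and 3451 CPM against 2649 and 2140.2 CPM (-0.64 ± 0.26 SE, adjusted p = 0.337), and TUBB3 had 2332 and 2033 CPM against 1264 and 1506 CPM (-0.60 ± 0.26 SE, adjusted p = 0.362). The stages did not overlap for 8 of the 10 members, all lower at 4MPT, as was so for 44.3% of 9628 genes at 10 CPM or more (30.3% lower). They overlapped for TUBA1B and for STMN1, which had a log2(Fold change) of 0.10 ± 0.26 (SE; adjusted p = 0.929). The median log2(Fold change) of the 10 members was -0.41, beside -0.0028 for all genes, and 0 of 10 were called by edgeR, beside 1.09% of 17547 genes (0.729% higher, 0.365% lower). At an unadjusted p under 0.05, 3 of the 10 passed (TUBB3, STMN2 and STMN4), beside 2193 of 17547 genes. DESeq2 called 1, STMN4 (adjusted p = 0.00501), beside 296 of 15856 genes. Without PFC_2MPT, edgeR put STMN4 at -1.40. The class held other cells at each stage, since inhibitory neuron-like cells made up 0.424% and 0.508% of it at 2MPT and 5.78% and 28.2% at 4MPT. Of the 1804 cells of PFC_4MPT so named, 792 were in cluster 13, which MTRNR2L genes led. None of the 10 leading genes of that cluster was an inhibitory marker, so its name is in doubt. Glutamatergic neuron-like cells were also read alone, where the share of all genes without overlap was not computed. There STMN4 was at 567 and 369 CPM at 2MPT and 164 and 189 CPM at 4MPT, and TUBB3 at 2344 and 1965 CPM and 1203 and 1312 CPM, again without overlap. The summed level of the 8 pan-neuronal markers in neuron-like cells moved in the same direction, from 2263 and 1775 CPM to 1327 and 1102 CPM, and its part in the result was not tested.

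The sites differed in how far the levels at 4MPT lay from those at 2MPT. Within HIP, the log2 ratio of 4MPT to 2MPT in neuron-like cells was -0.77 for TUBA1A, -0.79 for TUBB, -0.73 for TUBB2B and -1.17 for TUBB4B. Within PFC it was -0.18, -0.15, -0.10 and -0.078 for the same genes. STMN2 had -0.69 in HIP and -0.69 in PFC. With 1 library per stage and site, the difference between the sites could not be tested.

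In progenitor-like cells 0 of 10 members passed for 4MPT against 2MPT, beside 0.809% of genes (0.573% higher, 0.235% lower), and the median log2(Fold change) of the members was 0.0093. Here HIP and PFC moved apart, and for none of the 10 members were the stages without overlap, beside 39.9% of 9660 genes at 10 CPM or more. TUBB3 went from 908 to 412 CPM in HIP and from 551 to 850.3 CPM in PFC, and STMN2 from 802 to 160.2 CPM and from 235 to 347 CPM. Of the 10 members, 8 moved in opposite directions at the sites with counting intervals apart, beside 2.54% of 9660 genes at 10 CPM or more, many of which have fewer UMIs and wider intervals. STMN1 had 2853, 2732, 2554 and 3703 CPM. At an unadjusted p under 0.05, 0 members passed, beside 1075 of 13603 genes, and DESeq2 called 0, beside 124 of 14084 genes. Over all human cells, edgeR called 0 of 10 members for 4MPT against 2MPT, beside 2.4% of genes (1.85% higher, 0.55% lower). There the members at an unadjusted p under 0.05 were again TUBB3, STMN2 and STMN4, beside 2614 of 19074 genes. DESeq2 called STMN2 (-0.97, adjusted p = 0.0103) and STMN4 (-1.23, adjusted p = 0.00354), beside 656 of 16951 genes. With the graft site as a replicate block, edgeR called STMN4 (-1.19, adjusted p = 0.0225), and without PFC_2MPT it called STMN2 (-1.21, adjusted p = 0.0394) and STMN4 (-1.58, adjusted p = 8.54e-05).

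In astrocyte-like cells, tested over the 4 grafts, TUBB3 fell and was the 1 member of 10 that passed, beside 2.92% of 11812 genes (2.18% higher, 0.745% lower). It had 869 and 364 CPM at 2MPT against 118 and 246 CPM at 4MPT, a log2(Fold change) of -1.70 ± 0.40 (SE; adjusted p = 0.0384). TUBA1B (-0.97 ± 0.29 SE, adjusted p = 0.108), TUBB (-1.0 ± 0.31 SE, adjusted p = 0.125) and STMN2 (-1.43 ± 0.48 SE, adjusted p = 0.161) did not pass. With the graft site as a replicate block TUBA1B passed (-1.04, adjusted p = 0.0478). Without PFC_2MPT, which leaves only HIP_2MPT at that stage, TUBA1B was at -0.96, TUBB at -1.22, STMN2 at -2.13 and STMN4 at -0.90. Without PFC_4MPT, which leaves only HIP_4MPT at that stage, TUBA1A was at -1.01, TUBA1B at -1.47, TUBB at -1.50 and STMN2 at -1.69. All 10 members had a value below 0, with a median of -0.62 beside -0.010 for all genes. Within HIP, every log2 ratio of 4MPT to 2MPT was below 0, from -2.89 for TUBB3 to -0.50 for TUBB2A. Within PFC the ratios ran from -0.61 for TUBA1B to 0.27 for TUBB2B, with TUBA1A, TUBB2A, STMN1, STMN2 and STMN4 also above 0. STMN2 was at -2.49 in HIP and 0.15 in PFC, and TUBB3 at -2.89 and -0.56. In astrocyte-like cells the 8 pan-neuronal markers summed to 763 and 258 CPM at 2MPT and to 207 and 238 CPM at 4MPT, with none at 0. The 9 cycling markers summed to 482 and 526 CPM at 2MPT and to 152 and 173 CPM at 4MPT. Cluster 17, led by SPARCL1 and AQP4, made up 4.18% and 2.49% of the class at 2MPT and 34.9% and 35.7% at 4MPT, so the class held other cells at each stage. Within cluster 7 alone TUBB3 was at 883 and 373 CPM at 2MPT and 132 and 246 CPM at 4MPT, without overlap. The share of all genes without overlap was not computed for cluster 7. Over the whole class it was 46.3% of 10383 genes at 10 CPM or more (25.8% lower at 4MPT), beside 4 of the 10 members, all lower. The part of the neuronal and cycling markers in the fall of TUBB3 was not tested. Of the microtubule lists, the only genes called here were DCLK1 (1.49, adjusted p = 0.0116) and DCLK2 (0.97, adjusted p = 0.0456), both higher at 4MPT. The TUBB3 call was lost without HIP_4MPT (-1.25, adjusted p = 0.0741) and at the finer clustering resolution of 1.6 (-1.56, adjusted p = 0.0758).

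PFC was compared with HIP in neuron-like cells over both stages, with the stage in the model, which leaves 1 residual degree of freedom. By edgeR, 0 of 10 members passed, beside 0.151% of 16586 genes (0.109% higher, 0.0422% lower). At an unadjusted p under 0.05 there were 0, beside 403 of the 16586 genes, and DESeq2 called 0, beside 11 of 9405 genes. The log2(Fold change) was between -0.26 ± 0.39 (SE) for STMN2 and 0.17 ± 0.39 for TUBB. For all 10 genes the difference was smaller than its SE, which does not show that the sites were alike.

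Finally, the genes whose levels were most like those of each member were ranked by Pearson's r of log2(CPM + 1) over 15 sums (5 libraries and 3 classes) among 10167 genes. These sums share libraries and depth, and r is a description. TUBA1B was most like FANCA (r = 0.983), PIMREG (r = 0.979) and AURKB (r = 0.977), and TUBB4B most like FAM83D (r = 0.960), TACC3 (r = 0.959) and AURKB (r = 0.958). Of these, AURKB is a mitotic kinase, and TACC3 and FAM83D are spindle proteins. TUBB2A was most like ASPHD1 (r = 0.944), GNG3 (r = 0.941) and LMTK3 (r = 0.936), STMN2 like SH3BP5 (r = 0.979), LINC00599 (r = 0.970) and NREP (r = 0.969), TUBA1A like CELSR3 (r = 0.973) and TMEM151B (r = 0.959) and TUBB2B like PCBP4 (r = 0.969), ABRACL (r = 0.958) and EFNB3 (r = 0.944). TUBB was most like HDAC2 (r = 0.944), PTMA (r = 0.942) and PTMS (r = 0.941), STMN4 like GFOD1 (r = 0.963), BEX2 (r = 0.948) and FKBP1B (r = 0.944) and STMN1 like NDUFB11 (r = 0.961), INSM1 (r = 0.951) and GADD45G (r = 0.949). TUBB3 was most like CCSER1 (r = 0.977), KIAA0408 (r = 0.977) and NDUFB11 (r = 0.976), and this order rests on its low count in D0. STMN1 was also lowest in D0 in each of the 3 classes (1248, 720.2 and 319 CPM). Its order therefore holds the difference between D0 and the grafts too. TUBB2B (3868, 1909.6 and 2020.4 CPM) and STMN4 (563, 156 and 256 CPM) were highest in D0 in each of these classes. The orders and the r of these genes hold that difference as well. Between the members, r was 0.924 for TUBA1B and TUBB4B, 0.498 for TUBB2A and TUBB2B and -0.113 for TUBA1A and TUBA1B.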

How the data were processed

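Gene by cell UMI count matrices, deposited by the authors as raw counts, were read for 5 libraries of the 10x Genomics 3′ chemistry. Per the file headers, the authors made them with Cell Ranger 3.1.0 (D0) and 5.0.0 (grafts) on GRCh38, with 33538 and 36601 annotated genes. Graft libraries also had counts on a joint human and mouse reference, from which human cells were taken as barcodes with a human share of UMIs over 0.8. Cells were kept at more than 500 UMIs and 500 genes, a mitochondrial share under 0.15 and log10 genes divided by log10 UMIs above 0.80, and no doublet caller was run. Kept UMIs per library ranged from 11192237 to 55892222. Cells were clustered with Seurat 5.3.0 (sctransform 0.4.2, RPCA integration of 2500 variable genes, filled from lower ranks after 28 microtubule genes were removed, 40 principal components, resolution 0.8) and named from marker lists. Counts were summed per library and class and tested with edgeR 4.0.16 in R 4.3.3 (quasi-likelihood test, TMM, Benjamini-Hochberg adjustment at 0.05), with DESeq2 1.42.0, other filters, other clusterings, a site block and libraries left out as alternatives. Scripts were tested on simulated data. The 10 members were all described. Of the other lists, up to 3 called genes per list and direction were named, by the largest change at a mean of 10 CPM or more. Members, lists and tests were chosen with earlier results of these data known. For each member, the 3 genes with the highest r were named, except that 1 gene is not reported here. Promoter sequences were credited to RefSeq (GRCh38.p14). Intervals cover counting error only.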

Additional observations from a re-analysis of the deposited data

Results flagged for a closer look

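In 12 of 30 pairs of a gene and a class, a gene of the 10 moved one way from 2MPT to 4MPT at HIP and the other way at PFC, with the counting intervals of the stages apart at each site. They were 8 of 10 genes in progenitor-like cells, beside 2.54% of 9660 genes at 10 CPM or more, 2 of 10 in neuron-like cells, beside 13% of 9628 genes, and 2 of 10 in astrocyte-like cells, beside 1.04% of 10383 genes. Intervals are narrower for genes of many UMIs, as these 10 are, so the shares are not of genes alike in level. With 1 library per site and stage, the difference between the sites was not tested, and each value is the log2 ratio of 4MPT to 2MPT at PFC minus that at HIP.

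In progenitor-like cells STMN2, the axonal stathmin, differed by 2.89 (-2.32 at HIP and 0.56 at PFC) and TUBB3 by 1.77 (-1.14 and 0.63). TUBA1A differed by 1.39, TUBB2B by 1.19 and TUBB2A by 0.98, and the broadly expressed TUBB by 0.77, STMN1 by 0.60 and TUBA1B by 0.47. In the same cells the 8 pan-neuronal markers summed to 1057 CPM in HIP_2MPT and 348 CPM in HIP_4MPT, and to 641 CPM in PFC_2MPT and 502 CPM in PFC_4MPT, with none at 0. Their part in these differences was not tested.

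In neuron-like cells TUBA1B differed by 0.81 (-0.39 at HIP and 0.42 at PFC) and STMN1 by 0.27 (-0.093 and 0.18). In astrocyte-like cells TUBA1A differed by 1.49 (-1.37 at HIP and 0.12 at PFC) and TUBB2B by 0.87 (-0.60 and 0.27).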

How the results depend on the processing

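The counts moved most in the comparisons of 4MPT with 2MPT. Over all human cells edgeR called 457 genes, against 1347 without the filter on low counts, 734 with the graft site as a replicate block and 32 to 1508 with 1 library left out, and 0 of the 10 members, against 2 by DESeq2, 3 without the filter, 1 with the block and 0 to 2 with 1 library left out. In neuron-like cells it called 192 genes, against 296 by DESeq2, 863 without the filter, 500 with the block, 322 at a mitochondrial share under 0.10 and 109 to 808 with 1 library left out. The members called there were 0, against 1 by DESeq2, 1 without the filter and 0 to 1 with 1 library left out. In progenitor-like cells it called 110 genes, against 369 without the filter, 65 at resolution 1.6 and 0 to 280 with 1 library left out, which gave 0 to 1 members. In astrocyte-like cells it called 345 genes, against 202 by DESeq2, 763 without the filter and 253 to 842 with 1 library left out, and 1 member, against 4 without the filter, 2 with the block, 0 at resolution 1.6 and 0 to 5 with 1 library left out.

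For 2MPT against D0 in neuron-like cells, 4 members were called, against 2 at a human share over 0.9, 2 without the clusters led by MTRNR2L or HSPA1 genes (chosen after seeing the data) and 2 to 4 with 1 library left out. In progenitor-like cells 3 were called, against 5 without the filter and 2 to 5 with 1 library left out, where the genes called were 1608 to 5208, fewest without PFC_4MPT. For PFC against HIP 25 genes were called, against 11 by DESeq2, 0 without the stage, 6 at resolution 1.6, 5 without integration, and 7 both without the MTRNR2L and HSPA1 clusters and without clusters of 1 library. Leaving out a library there leaves values without a test, which ran over 0 for all members but STMN2, as for TUBB4B (-0.44 to 0.67), TUBA1B (-0.27 to 0.56) and STMN4 (-0.60 to 0.20). Before thinning, 4 members had a higher share of cells with a UMI in neuron-like than in progenitor-like cells in every library, against 8 after it. The share of all genes was not computed for this count. The genes called for 2MPT against D0 in neuron-like cells were 7695 of 17547. They were 7451 of 17527 at a human share over 0.9 and 7446 of 17332 without the MTRNR2L and HSPA1 clusters. In progenitor-like cells they were 4842 of 13603, and 5941 of 23420 without the filter. For 4MPT against 2MPT in astrocyte-like cells they were 412 of 11812 with the block and 262 of 12248 at resolution 1.6. The site as a block changed no other count of members by over 1.5 times, and the libraries carry no other pairing.

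Signs turned only for members that did not pass the test. For 2MPT against D0 over all human cells, STMN4 was at 0.015, and at -0.0017 by DESeq2, -0.048 without the filter, -0.0074 with the block and -0.44 to 0.36 with 1 library left out. In neuron-like cells TUBA1A was at -0.013 by DESeq2. In progenitor-like cells TUBA1B was at -0.032 without the filter, TUBB at 0.029 and TUBB4B at 0.31 without integration, TUBB4B at 0.067 at resolution 1.6 and TUBA1A at -0.084 to 0.39 with 1 library left out. For 4MPT against 2MPT over all human cells, TUBA1B was at 0.037 at a human share over 0.9 and 0.030 at a mitochondrial share under 0.10. In progenitor-like cells the block gave -0.020 for TUBB and -0.025 for TUBB2B, and a minimum of 1000 UMIs gave -0.0081 and -0.0074. Resolution 1.6 gave -0.11, -0.069 and -0.092 for TUBB, TUBB2A and TUBB2B, and clustering with the microtubule genes kept gave -0.11, -0.079 and -0.10. The dual reference gave -0.010 for TUBB2B, and clustering without integration 0.0094 for TUBB3. With 1 library left out, log2 values of 4MPT against 2MPT ran over 0 for TUBA1B (-0.38 to 0.26), TUBB4B (-0.43 to 0.14) and STMN1 (-0.34 to 0.11) over all human cells, for TUBA1B (-0.22 to 0.35) and STMN1 (-0.030 to 0.23) in neuron-like cells and for TUBB2A (-0.46 to 0.11) and TUBB2B (-0.41 to 0.21) in astrocyte-like cells. In progenitor-like cells they did so for TUBA1A (-0.60 to 0.33), TUBA1B (-0.17 to 0.43), TUBB (-0.34 to 0.31), TUBB2A (-0.34 to 0.37), TUBB2B (-0.42 to 0.35), TUBB3 (-0.70 to 0.43), STMN1 (-0.017 to 0.61), STMN2 (-1.56 to 0.24) and STMN4 (-1.24 to 0.18). The causes were not tested.

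With 1 library per site and stage and none beside D0, small changes could not be detected, and levels of low genes in classes of few cells rest on few UMIs.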

Other observations

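The minor genes of the families were read as shares of the UMIs of their family within a library, and only some of them separated the classes. TUBB6, a beta-tubulin of proliferating and non-neuronal cells, made up 1.01% to 1.93% of beta-tubulin UMIs in progenitor-like cells and 0.0488% to 0.0945% in neuron-like cells, without overlap. TUBB4A, a beta-tubulin of mature neurons and of myelinating cells, made up 0.216% to 0.564% and 0.701% to 1.32%, and was higher in neuron-like cells of every library. STMN3, a neuronal stathmin, made up 1.27% to 3.25% of stathmin UMIs in progenitor-like and 0.811% to 2.50% in neuron-like cells. TUBA1C, which shares sequence with TUBA1B, made up 1.06% of alpha-tubulin UMIs in progenitor-like cells of D0 and 1.37% to 3.94% in those of the grafts, beside 0.108% and 1.72% to 2.12% in neuron-like cells. The ranges of the classes overlapped for STMN3 and, in the grafts, for TUBA1C. The gene models behind the counts of D0 and of the grafts could not be compared. The classes are clusters of the same cells, so these are descriptions without a test.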
